A study of Mus musculus with 39 samples.

Results

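The 9 genes described here belong to the Sonic hedgehog pathway and were followed through the maturation of mouse cerebellar granule cells. They are the receptor Ptch1, the decoy receptor Hhip, the co-receptors Boc, Cdon and Gas1, the transducer Smo and the transcription factors Gli1, Gli2 and Gli3. They were chosen by name, with earlier results of these data known, and all 9 were found among the 24100 gene identifiers of the count table and passed the filter on low counts in all 13 comparisons. On mm10 the annotated gene spans place Ptch1 (Entrez 19206) at chr13:63508328-63573460, Hhip (Entrez 15245) at chr8:79965850-80058060, Boc (Entrez 117606) at chr16:44485045-44558870, Cdon (Entrez 57810) at chr9:35421528-35507652 and Gas1 (Entrez 14451) at chr13:60174405-60177535. They place Smo (Entrez 319757) at chr6:29735497-29761366, Gli1 (Entrez 14632) at chr10:127329882-127341579, Gli2 (Entrez 14633) at chr1:118834061-119054405 and Gli3 (Entrez 14634) at chr13:15463723-15730026.

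Sonic hedgehog is the ligand that Purkinje cells release onto the granule cell progenitors of the external germinal layer, and it is the main mitogen of these cells. Without ligand, Ptch1 holds Smo inactive. Ligand bound to Ptch1 and a co-receptor releases Smo, which acts in the primary cilium and changes the processing of the Gli proteins. Gli2 is the main activator, Gli3 serves mostly as a repressor, and Gli1 is itself a transcriptional target whose level is widely read as the output of the pathway. Ptch1 and Hhip are induced by the pathway too and limit it, whereas Boc, Cdon and Gas1 are repressed by it in several tissues.

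The study comprised 39 RNA-seq libraries from C57Bl/6J mice and, for the Ezh1 cultures, from mice whose strain the labels do not give. In translating ribosome affinity purification (TRAP), a tagged ribosomal protein, Egfp-L10a, is expressed from a cell type promoter and the RNA on those ribosomes is pulled down. Neurod1-bacTRAP RNA came from whole cerebella of Tg(NeuroD1-Egfp-L10a) mice at P7, P12 and P21 (n = 5 at each age), with 1 library of unpurified cerebellar RNA (input) at each age. Math1-bacTRAP RNA came from granule cell progenitors of Tg(Atoh1-Egfp-L10a) animals, purified at P7 (n = 4). Granule cells without a tag, from P6 to P7 mice, were grown for 5 days in vitro (DIV5) with 100 nM UNC1999, an inhibitor of the histone methyltransferases EZH2 and EZH1 (n = 2). The matching cells were taken at once (DIV0, n = 2) or grown with DMSO to DIV2 or DIV5 (n = 2 each). Ezh1(cKO/cKO);Atoh1-Cre and Ezh1(wt/wt);Atoh1-Cre cells, both carrying Cre, were taken at P7 and likewise grown to DIV5 (n = 4 and n = 5). The labels do not say which libraries share an animal or a litter, so p-values measure the spread between these libraries.

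Totals were 12084136 to 38546538 estimated counts per library. Marker genes followed the labels. Atoh1, the progenitor gene whose sequences drive the Math1 transgene, averaged 1050 CPM (gene counts scaled by the library's total) in Math1 TRAP and 47.5 CPM at DIV0, and whether the transgene itself adds to that level was not tested. Gabra6, a receptor subunit of mature granule cells, averaged 56, 830 and 1760 CPM in Neurod1 TRAP at P7, P12 and P21. RNA of other cells was not absent from Neurod1 TRAP: the summed level of 7 Purkinje cell markers was 1080 to 1340 CPM at P21 and 495 to 595 CPM at P7, against 2040 to 4870 CPM in the inputs. Among the Ezh1 cultures, libraries 1 and 2 of both genotypes stood apart from the later-numbered libraries, as described with their values.

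Between P7 and P21 the 9 genes split. In Neurod1 TRAP the receptor Ptch1 and the co-receptors Boc and Cdon rose, while Smo, the co-receptor Gas1 and the 3 Gli factors fell. The part of other cells, whose RNA was not absent from Neurod1 TRAP, in these changes was not tested. In fold terms the largest fall among the 9 was the 76.4-fold one of Gli2, to 0.816 ± 0.328 CPM at P21, against 56.8 ± 5.08 CPM at P7 (SD, n = 5 each), and Hhip averaged 1.57, 1.25 and 1.48 CPM at P7, P12 and P21. In the P21 against P7 comparison, 3 members rose, 5 fell and 1 did not pass, at an adjusted p threshold of 0.05 in edgeR's quasi-likelihood test, where 81.5% of the 14759 genes tested were called, 38.9% higher and 42.5% lower. The share of members called, 8 of 9, was thus near that of all genes. The median log2 fold change of the 9 was -1.74, against -0.05 for all genes tested. In RNA pulled down from whole cerebella, a changed mix of cells and a changed level per cell cannot be told apart.

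Ptch1 levels were 90.4, 88.0, 98.1, 81.2 and 106 CPM in the P7 libraries. They were 112, 119, 109, 134 and 125 CPM at P12. At P21 they were 176, 156, 156, 226 and 198 CPM. No library of one age overlapped the next, and the rise at P21 over P7 was 0.84 on the log2 scale (SE 0.09, adjusted p = 2.8e-08). The step from P7 to P12 was the smaller part, 0.32 (SE 0.09, adjusted p = 0.0044), and that from P12 to P21 was 0.52 (SE 0.09, adjusted p = 4.4e-05).

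Boc, an immunoglobulin superfamily co-receptor that binds the ligand, had 34.1, 43.4, 41.3, 35.4 and 51 CPM at P7. It had 72.9, 89.5, 79.7, 90.5 and 89.5 CPM at P12 and 141, 134, 139, 168 and 153 CPM at P21. The 3 ages did not overlap, and the level at P21 was 3.26-fold that at P7 (log2 1.70, SE 0.09, adjusted p = 2.1e-13). Cdon, the closest relative of Boc, had the largest fold rise of the 9. Its levels were 3.87 to 5.48 CPM at P7, 12 to 16.5 CPM at P12 and 19.9 to 27.5 CPM at P21. The ages did not overlap and the P21 level was 4.50-fold that at P7 (log2 2.17, SE 0.13, adjusted p = 1.3e-12). Gas1, a lipid-anchored co-receptor unrelated to Boc and Cdon, fell, with 18.9 to 28.4 CPM at P7, 8.36 to 14.7 CPM at P12 and 6.15 to 9.32 CPM at P21. The P12 and P21 ranges of Gas1 overlapped, and its P21 level was 3.33-fold lower than at P7 (log2 -1.74, SE 0.14, adjusted p = 1.7e-10).

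Smo, the membrane protein that carries the signal into the cell, had 51.9, 69.6, 56.9, 64.1 and 76.1 CPM at P7. It had 18.2, 21.6, 33.7, 25.4 and 22.7 CPM at P12. At P21 the 5 libraries held 4.96, 5.01, 6.04, 4.86 and 4.69 CPM. The ages were fully separate. The level was 2.70-fold lower at P12 than at P7, and at P21 it was 5.08-fold lower than at P12 (log2 -2.34, SE 0.14, adjusted p = 5.3e-12), so the second step was larger as a fold change and the first in CPM.

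Gli1 fell more in the first step, both as a fold change and in CPM. Its levels were 33.4, 32.4, 30.5, 34.3 and 39.1 CPM at P7, then 3.83, 4.39, 9.04, 5.31 and 5.01 CPM at P12, then 2.75, 2.55, 3.16, 2.37 and 2.50 CPM at P21. It was 6.31-fold lower at P12 than at P7 (log2 -2.66, SE 0.15, adjusted p = 4.2e-12) and a further 2.22-fold lower at P21 (log2 -1.15, SE 0.18, adjusted p = 9.1e-06). Gli2 fell at both steps, with 53.7 to 65.7 CPM at P7, 6.97 to 12.1 CPM at P12 and 0.499 to 1.34 CPM at P21. The first step was 6.88-fold and the second 11.1-fold, together 76.4-fold (log2 -6.26, SE 0.22, adjusted p = 3.1e-18). Gli3 went to 0.295 to 0.729 CPM at P21, against 9.24 to 12 CPM at P7, a 20.6-fold fall (log2 -4.36, SE 0.23, adjusted p = 9.3e-15). At P21 the 5 libraries held 12 to 31 Gli2 counts and 6 to 18 Gli3 counts each, so these levels rest on few counts.

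Hhip, which binds the ligand without signalling, had 1.18 to 1.66 CPM at P21 and 0.878 to 2.29 CPM at P7. The ranges overlapped and the difference, -0.22 on the log2 scale (SE 0.25), did not pass the test (adjusted p = 0.43). The P12 against P7 and P21 against P12 comparisons each called the same directions for the same members, 3 higher and 5 lower, where 68.2% (31.5% higher, 36.7% lower) and 65.1% (32.4% higher, 32.7% lower) of all genes were called. Scaling by library size alone moved the median of all genes by -0.15 between P21 and P12 and left 35.7% rather than 49.8% of the calls on the higher side, without changing a call among the 9.

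**Figure D1:**
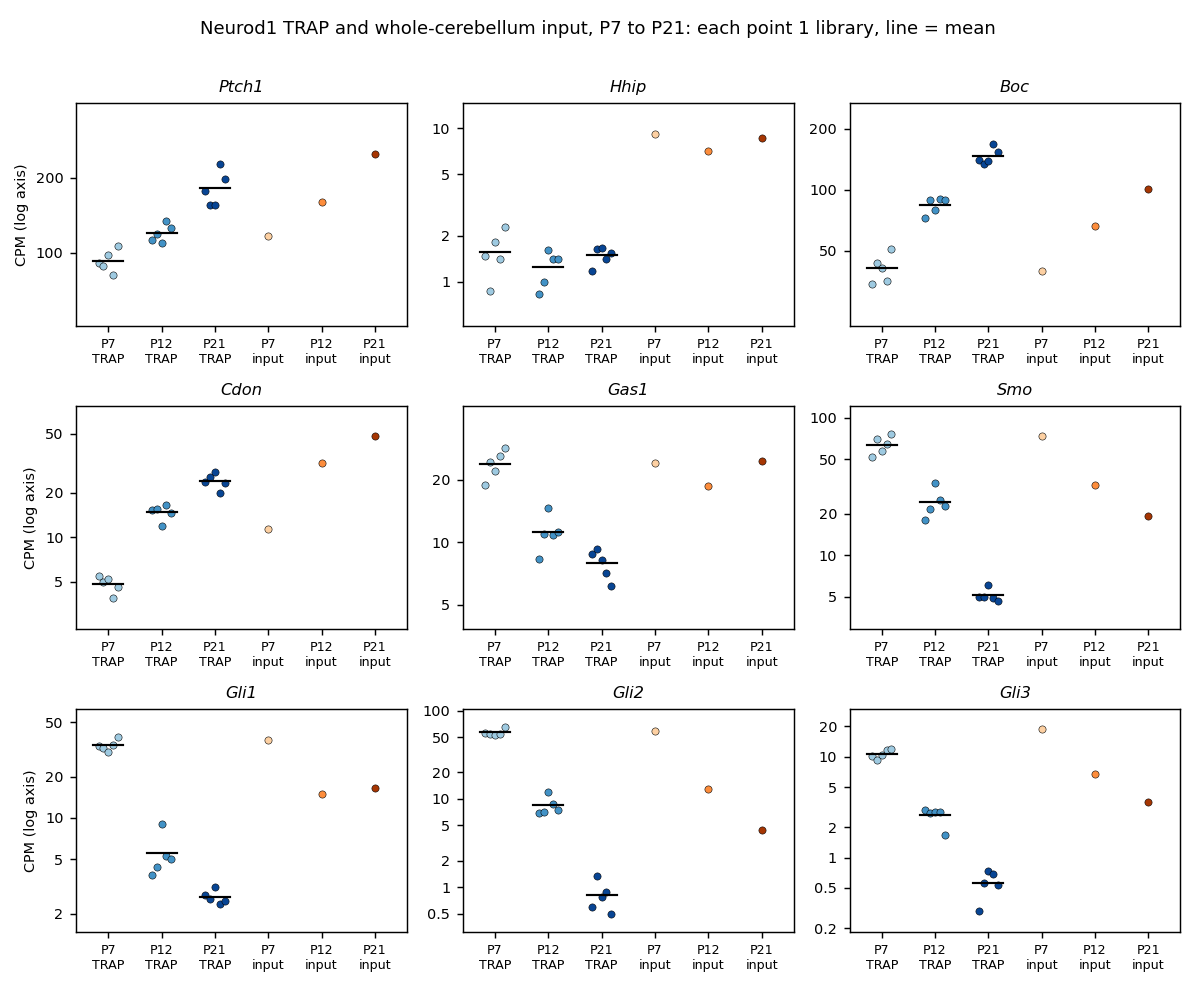
Levels of the 9 genes in CPM on log axes, 1 panel per gene, in Neurod1 TRAP at P7, P12 and P21 (n = 5 each) and in 1 whole-cerebellum input library per age. Points are libraries and lines are means. Ptch1, Boc and Cdon climb with age in both kinds of RNA, the Gli genes and Smo descend in TRAP, and Hhip lies between 0.831 and 2.29 CPM in TRAP and 7.11 to 9.12 CPM in the inputs.

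Smo, Gli2 and Gli3, which fell together, and Ptch1, which rose, are shown with the 250 bases before their transcription start, from RefSeq on GRCm38.p6. The windows are chr13:63565736-63565985 (minus strand) for Ptch1, chr6:29735247-29735496 (plus) for Smo, chr1:119053620-119053869 (minus) for Gli2 and chr13:15463473-15463722 (plus) for Gli3. No GENCODE exon of the same gene lies in these windows, although the gene spans given above place the outermost start of Ptch1 and of Gli2 further upstream. An exon of the antisense gene Gm6556 covers the whole Gli3 window. Capitals mark GGGTGG on either strand, the core of the sequence that Gli proteins bind.
Ptch1: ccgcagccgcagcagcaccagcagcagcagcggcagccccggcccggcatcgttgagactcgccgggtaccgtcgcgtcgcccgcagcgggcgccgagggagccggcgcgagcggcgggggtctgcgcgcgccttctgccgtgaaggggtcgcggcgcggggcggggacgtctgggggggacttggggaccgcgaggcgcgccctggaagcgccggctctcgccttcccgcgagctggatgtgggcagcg
Smo: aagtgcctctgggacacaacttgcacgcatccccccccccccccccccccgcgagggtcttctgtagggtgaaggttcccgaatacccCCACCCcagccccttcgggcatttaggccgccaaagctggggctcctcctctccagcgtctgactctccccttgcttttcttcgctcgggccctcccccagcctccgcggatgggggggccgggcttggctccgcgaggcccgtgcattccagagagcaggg
Gli2: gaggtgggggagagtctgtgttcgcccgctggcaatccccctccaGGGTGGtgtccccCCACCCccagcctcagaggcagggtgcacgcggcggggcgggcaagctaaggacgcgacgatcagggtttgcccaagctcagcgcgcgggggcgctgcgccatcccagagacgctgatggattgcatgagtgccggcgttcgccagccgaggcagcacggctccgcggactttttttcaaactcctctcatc
Gli3: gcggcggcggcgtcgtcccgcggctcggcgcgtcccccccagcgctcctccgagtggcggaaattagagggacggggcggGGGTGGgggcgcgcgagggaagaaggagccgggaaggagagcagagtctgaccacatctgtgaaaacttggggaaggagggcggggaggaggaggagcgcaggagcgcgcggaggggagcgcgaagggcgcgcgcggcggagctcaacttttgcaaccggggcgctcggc
The 6 letters occur at 2 places before Gli2, at 1 before Smo and at 1 before Gli3, and not in the Ptch1 window. Among the windows not printed, they occur at 1 place before Hhip, which did not pass between P7 and P21, and not before Gas1, which fell, or Cdon, which rose. They occur in 28.1% of 32851 windows of this length from all genes, so a match in itself is common. The extended form TGGGTGG occurs in 8.11% of all windows and in none of the 7 member windows on hand. The 4 printed windows are rich in C and G, with 67.2% to 78.4% against a median of 52.4%, and hold 15 to 41 CpG pairs against a median of 6. The Cdon window, which reaches into an annotated Cdon exon and is not printed, holds 1 CpG pair and 42.8% C and G.

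Other pathway genes, listed by role, mostly fell. All 7 of the other receptors and surface modifiers fell between P7 and P21. Evc, a ciliary partner of Smo, was 13.2-fold lower (log2 -3.72, SE 0.2, adjusted p = 5.2e-14), and the glypican Gpc3 was 26.3-fold lower. Of 12 genes of ciliary transport and Gli handling, 10 fell and 1 rose. Sufu, which binds and restrains the Gli proteins, was 5.37-fold lower (log2 -2.43, SE 0.07, adjusted p = 4.3e-18), and Gpr161, a ciliary receptor that opposes the pathway, was 14-fold lower. Grk2, a kinase that phosphorylates Smo, was the 1 that rose (log2 1.69, SE 0.06, adjusted p = 5.9e-17).

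Kinases and ubiquitin ligases that act on Gli split, with 8 of 13 higher and 5 lower at P21. Gsk3b, which phosphorylates Gli after protein kinase A has primed it, was 2.85-fold lower, Csnk1e, a casein kinase of the same step, was 2.34-fold lower, and Spop, an adaptor that targets Gli for degradation, was 1.87-fold higher. Of 10 genes known as pathway targets in progenitors, 8 fell and none rose. Mycn fell 76.9-fold (log2 -6.27, SE 0.17), Ccnd2 216-fold and Foxm1 55.6-fold. All 12 cell cycle genes fell at the same time, with a summed level of 98.5 to 111 CPM at P21, against 1510 to 1900 CPM at P7. Of 8 genes for ligands and their release, 5 were tested, of which 3 fell and 1 rose. Disp1, which releases the lipid-modified ligand, was 5.91-fold lower, and Scube1, a secreted relative of the ligand carrier Scube2, was 8.11-fold lower. Hhat, which attaches palmitate to the ligand, was 2.03-fold lower. The 1 that rose was Shh, named for its role after its values were seen, with 1.23 ± 0.246 CPM at P21 and 0.603 ± 0.147 CPM at P7 (SD, n = 5 each, 1.86-fold, adjusted p = 0.0049). The part of Purkinje cells, of whose 7 markers 6 rose and 1 fell, was not tested.

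At P7, Neurod1 TRAP and Math1 TRAP set cells already expressing the neuronal gene Neurod1 against progenitors. The transgenic line and the starting material, whole cerebella or purified progenitors, differed as well. Cell stage, line and starting material cannot be told apart. In Neurod1 TRAP 8 members were lower and Cdon was higher, where 72.4% of all genes were called, 36.5% higher and 35.8% lower. All 7 Purkinje cell markers were higher there too, with sums of 495 to 595 CPM in Neurod1 TRAP and 62 to 99.3 CPM in Math1 TRAP, as were 6 of 7 GABAergic interneuron markers, with 83.2 to 113 CPM in Neurod1 TRAP and 14.1 to 22.8 CPM in Math1 TRAP. Of the 11 astrocyte and Bergmann glia markers 3 were higher and 7 lower, and of the 10 vascular and meningeal ones 2 were higher and 7 lower. Boc differed by 3.46-fold, with 34.1 to 51 CPM in Neurod1 TRAP and 140 to 163 CPM in Math1 TRAP (log2 -1.79, SE 0.10, adjusted p = 1.1e-12). Gli2 was 3.87-fold lower, with 53.7 to 65.7 CPM in Neurod1 TRAP and 218, 249, 209 and 231 CPM in Math1 TRAP (log2 -1.95, SE 0.12, adjusted p = 1.2e-11). Gas1, Gli1, Gli3 and Smo were 3.07-, 2.68-, 2.66- and 2.49-fold lower and Ptch1 1.89-fold lower. Cdon had 5.48, 4.97, 5.20, 3.87 and 4.59 CPM in Neurod1 TRAP, against 3.18, 2.05, 1.99 and 3.38 CPM in Math1 TRAP (log2 0.94, SE 0.17, adjusted p = 3.7e-05). The P7 input held 11.3 CPM of Cdon, and the part of other cells in its level in Neurod1 TRAP was not tested. Only Hhip overlapped between the groups among the 9, with 0.878 to 2.29 CPM in Neurod1 TRAP and 2.05 to 4.48 CPM in Math1 TRAP (log2 -0.97, SE 0.26, adjusted p = 0.002). How common a lack of overlap was among all genes was not counted, so it is not read as a trait of these members.

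The mean of Boc was 147 ± 13.8 CPM in Neurod1 TRAP at P21 and 146 ± 11.2 CPM in Math1 TRAP, with 41.0 ± 6.81 CPM in Neurod1 TRAP at P7. Ptch1 likewise had 182 ± 29.9 CPM in P21 Neurod1 TRAP and 181 ± 9.33 CPM in Math1 TRAP, and the ranges of the 2 groups overlapped for both genes. Neither pair was tested. Math1 libraries 1 and 2 had more Gas1, Gli1 and Gli3 than libraries 3 and 4, with 35.2 and 36.8 CPM of Gli3 beside 24.8 and 21 CPM, and with either pair alone all 9 calls held.

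Of the 12 cilium genes 10 were lower in Neurod1 TRAP and 1 was higher. Dync2h1, the motor of transport towards the cell body in cilia, was 3.07-fold lower, Ift172, a part of the transport particle, was 2.09-fold lower and Grk2 was 1.66-fold higher. Of the 13 kinases and ligases 6 were higher and 1 was lower. Prkaca and Prkacb, the catalytic subunits of protein kinase A, which directs Gli into repressor form, were 1.97- and 1.91-fold higher and the regulatory subunit Prkar1a 1.54-fold higher. Of the progenitor targets 7 were lower and 1 was higher. Atoh1 was 39.1-fold lower and Ccnd1 3.73-fold. Atoh1 sequences drive the transgene of the Math1 line, and the transgene's part in the Atoh1 difference was not tested. Each of the 12 cell cycle genes was also lower in Neurod1 TRAP, with sums of 1510 to 1900 CPM there and 4100 to 5990 CPM in Math1 TRAP.

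**Figure D2:**
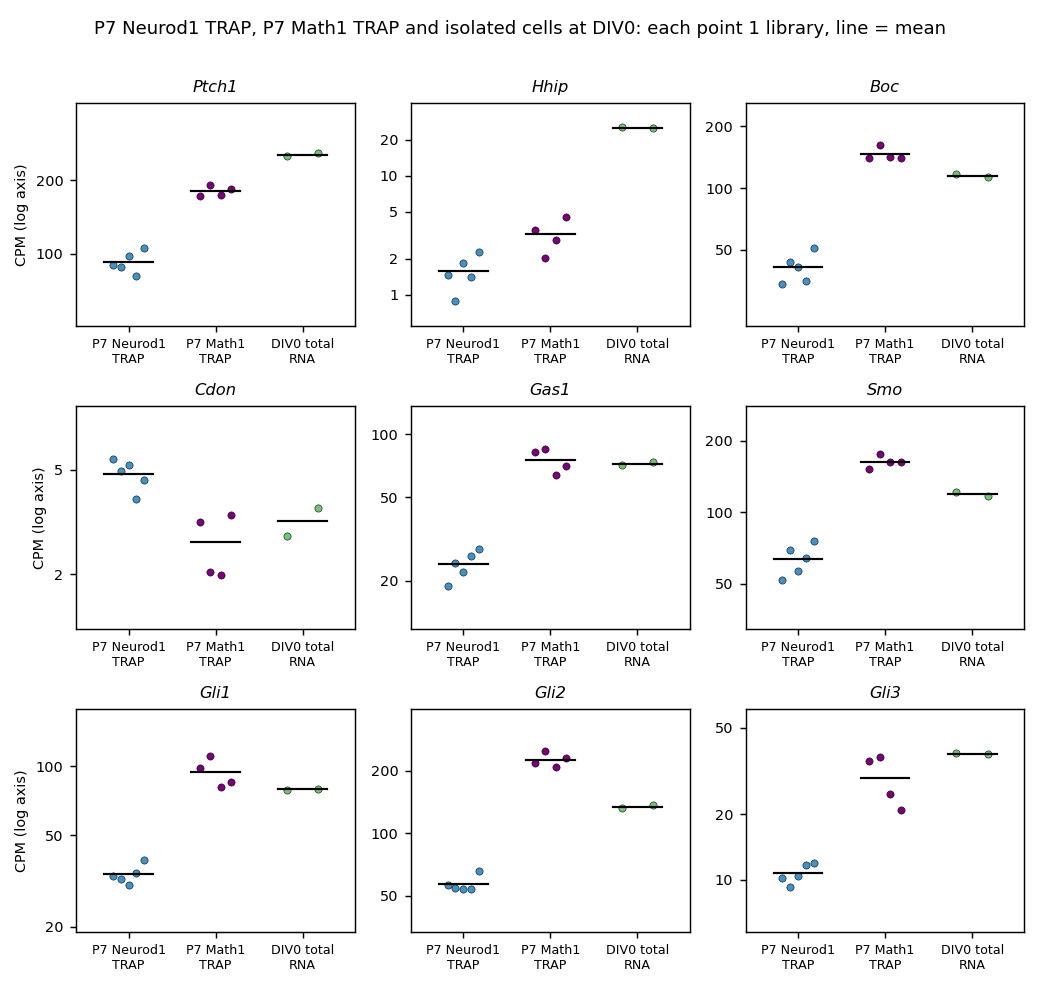
Levels in CPM on log axes in P7 Neurod1 TRAP (n = 5), P7 Math1 TRAP (n = 4) and isolated cells at DIV0 (n = 2), with points for libraries and lines for means. Cdon is the 1 panel in which Neurod1 TRAP stands above Math1 TRAP, and Hhip stands far above both at DIV0, at 25.1 and 25.6 CPM.

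Compared per kilobase of exon, so that genes can be set roughly beside each other, Gli2 and Boc led in Math1 TRAP with 33 and 32.9 CPM per kb. The length used was that of all annotated exons of a gene together, 14185 bases for Ptch1. It is not the length of the transcripts expressed, so the order between genes is approximate. Smo had 29.1, Gas1 25.6, Gli1 18.8 and Ptch1 12.7 CPM per kb, followed by Gli3 with 3.07, Hhip with 0.356 and Cdon with 0.343. In P21 Neurod1 TRAP, Boc led with 33 CPM per kb, followed by Ptch1 with 12.9, Cdon with 3.11 and Gas1 with 2.68. Smo then had 0.909, Gli1 0.534, Hhip 0.164, Gli2 0.119 and Gli3 0.0585 CPM per kb. Neighbours in these orders whose libraries overlapped were Gli2 and Boc, Smo and Gas1, Gas1 and Gli1, and Hhip and Cdon in Math1 TRAP, and Cdon and Gas1, Hhip and Gli2, and Gli2 and Gli3 in P21 Neurod1 TRAP.

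TRAP against whole-cerebellum input compares the relative level of each transcript in the pulled-down RNA with that in unpurified RNA. With age as a covariate, 8 members were lower in Neurod1 TRAP, none was higher and 1 did not pass, where 77.8% of genes were called, 36.6% higher and 41.2% lower. The largest fold difference among the 9 was that of Hhip, with 0.831 to 2.29 CPM over the TRAP libraries and 9.12, 7.11 and 8.61 CPM in the P7, P12 and P21 inputs, 6.07-fold lower in TRAP (log2 -2.60, SE 0.18, adjusted p = 8.8e-11). Cdon was 2.28-fold lower in TRAP and its inputs held 11.3, 31.7 and 48.2 CPM, so the rise with age was seen there too. Ptch1 in the inputs was 117, 159 and 250 CPM and Boc 39.8, 66.2 and 101 CPM at the same ages.

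Boc was the member without a call (log2 0.22, SE 0.11, adjusted p = 0.074). Its direction and call varied with the setting: -0.17 (adjusted p = 0.14) with scaling by library size alone, 0.31 (adjusted p = 0.014) without the low-count filter and 0.37 (adjusted p = 0.015) without the P7 input. The differences of Gli1, Gli2, Smo and Gas1 rested in part on the P21 input. Gli1 was 2.37 to 3.16 CPM in TRAP and 16.5 CPM in input at that age, whereas at P7 the values were 30.5 to 39.1 CPM in TRAP and 37 CPM in input. At P12 Gli1 was 3.83 to 9.04 CPM in TRAP and 14.9 CPM in input. Without the P21 input the log2 differences were -0.88 for Gli1, -0.39 for Smo, -0.46 for Gas1 and -0.38 for Gli2, against -1.61, -1.01, -0.96 and -1 with it. In that fit Gli2 lost its call (adjusted p = 0.066), while Gli1, Smo and Gas1 kept theirs. All 11 astrocyte and Bergmann glia markers, all 7 Purkinje cell markers and all 10 vascular and meningeal markers were lower in TRAP, with glial sums of 392 to 734 CPM in TRAP and 1960 to 2520 CPM in the inputs. The part of these cells in the members' input levels was not tested. Scaling by library size alone moved the median of all genes by -0.40 here and left 25.6% rather than 47.1% of calls on the higher side.

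In culture 7 of the 9 genes fell within 2 days, and 5 of those 7 rose again by DIV5. At DIV2 against DIV0, 7 members fell, Cdon rose and Boc did not pass, where 71.3% of genes were called, 36.4% higher and 35% lower. Gli1 was at 0.249 and 0.3 CPM in the DIV2 libraries, which is 6 and 5 counts, against 78.6 and 79.8 CPM at DIV0, a 293-fold fall (log2 -8.19, SE 0.36, adjusted p = 1e-14). Gli2 had 3.52 and 4.99 CPM at DIV2 and 132 and 137 CPM at DIV0, 33.1-fold lower (log2 -5.05, SE 0.13, adjusted p = 2.5e-14). Hhip, Gas1, Smo, Gli3 and Ptch1 were 6.48-, 5.21-, 4.99-, 4.53- and 1.77-fold lower. Ptch1, a transcriptional target like Gli1, had 149 and 146 CPM at DIV2, against 251 and 260 CPM at DIV0. All 12 cell cycle genes fell as well. Boc had 114 and 110 CPM at DIV2, against 117 and 113 CPM at DIV0 (log2 -0.07, SE 0.05, adjusted p = 0.29).

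From DIV2 to DIV5, 6 members rose, Ptch1 fell, and Boc and Hhip did not pass, where 66.7% of genes were called, 31.1% higher and 35.7% lower. Gas1 had 81.1 and 67.6 CPM at DIV5, against 13.1 and 15.4 CPM at DIV2 (log2 2.33, SE 0.12, adjusted p = 2.8e-08). Smo had 72.9 and 63.5 CPM at DIV5, against 20.2 and 29.1 CPM at DIV2 (log2 1.43, SE 0.16). Gli2 had 15.3 and 13.7 CPM at DIV5 and Gli3 31.7 and 27.4 CPM, 3.34- and 3.33-fold above DIV2. Gli1 rose 3.35-fold but only to 0.893 and 0.996 CPM, which is 16 and 24 counts. Cdon reached 55.7 and 47.6 CPM, against 8.54 and 16.6 CPM at DIV2 (log2 2.03, SE 0.29, adjusted p = 0.0016). Ptch1 had 101 and 95.1 CPM at DIV5, 1.57-fold lower than at DIV2. Hhip, with 5.02 and 4.03 CPM at DIV5 and 3.07 and 5.17 CPM at DIV2, gained a call without DIV2 library 2 (log2 0.57, adjusted p = 0.021). Scaling by library size alone moved the median of all genes by 0.14 and the higher share of calls was 57.4% rather than 46.6%.

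Markers of several other cell types rose over the same days, but not of all. From DIV2 to DIV5, 8 of 10 vascular and meningeal markers rose and none fell, whereas of 6 GABAergic interneuron markers tested 1 rose and 3 fell, and of 9 oligodendrocyte lineage markers 2 rose and 3 fell. From DIV0 to DIV2, 4 vascular and meningeal markers rose and 5 fell, and 1 oligodendrocyte lineage marker rose and 7 fell. The 10 vascular and meningeal markers summed to 613 and 629 CPM at DIV0, 3250 and 5460 CPM at DIV2 and 12000 and 13600 CPM at DIV5, with none at 0 in these libraries. The 11 astrocyte and Bergmann glia markers summed to 854 and 861, 1030 and 1050, and 2440 and 2490 CPM at these times, and all 11 rose from DIV2 to DIV5, as did all 8 microglia markers. At DIV2, library 2 had more of the vascular and meningeal markers than library 1 and also more Cdon, Gli3, Smo and Hhip. The part of these cells in the members' rise to DIV5 was not tested. Other pathway genes split in the same period. Of the 7 other receptors and surface modifiers 6 rose, among them Evc (log2 1.59, SE 0.1) and Evc2 (4.19-fold). Of the 10 targets 5 rose and 4 fell, with Ccnd1 3.09-fold and Sfrp1 3.6-fold higher and Bmi1 2.1-fold lower. Sufu was 2.13-fold lower.

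Over the whole culture, DIV5 against DIV0, 1 member was higher, 6 were lower and 2 did not pass, where 78.3% of genes were called, 40.2% higher and 38.2% lower. Cdon was 15-fold higher (log2 3.90, SE 0.40, adjusted p = 0.00015) and Gli1 87.5-fold lower (log2 -6.45, SE 0.20, adjusted p = 1.2e-14). Gas1, with 81.1 and 67.6 CPM at DIV5 and 71.2 and 73.8 CPM at DIV0, had overlapping groups (log2 -0.05, SE 0.10). The fall of Gli3 (log2 -0.45, SE 0.15, adjusted p = 0.026) lost its call without DIV0 library 1 (adjusted p = 0.11), DIV0 library 2 (0.094) or DIV5 library 2 (0.15), and with scaling by library size alone (0.055).

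**Figure D3:**
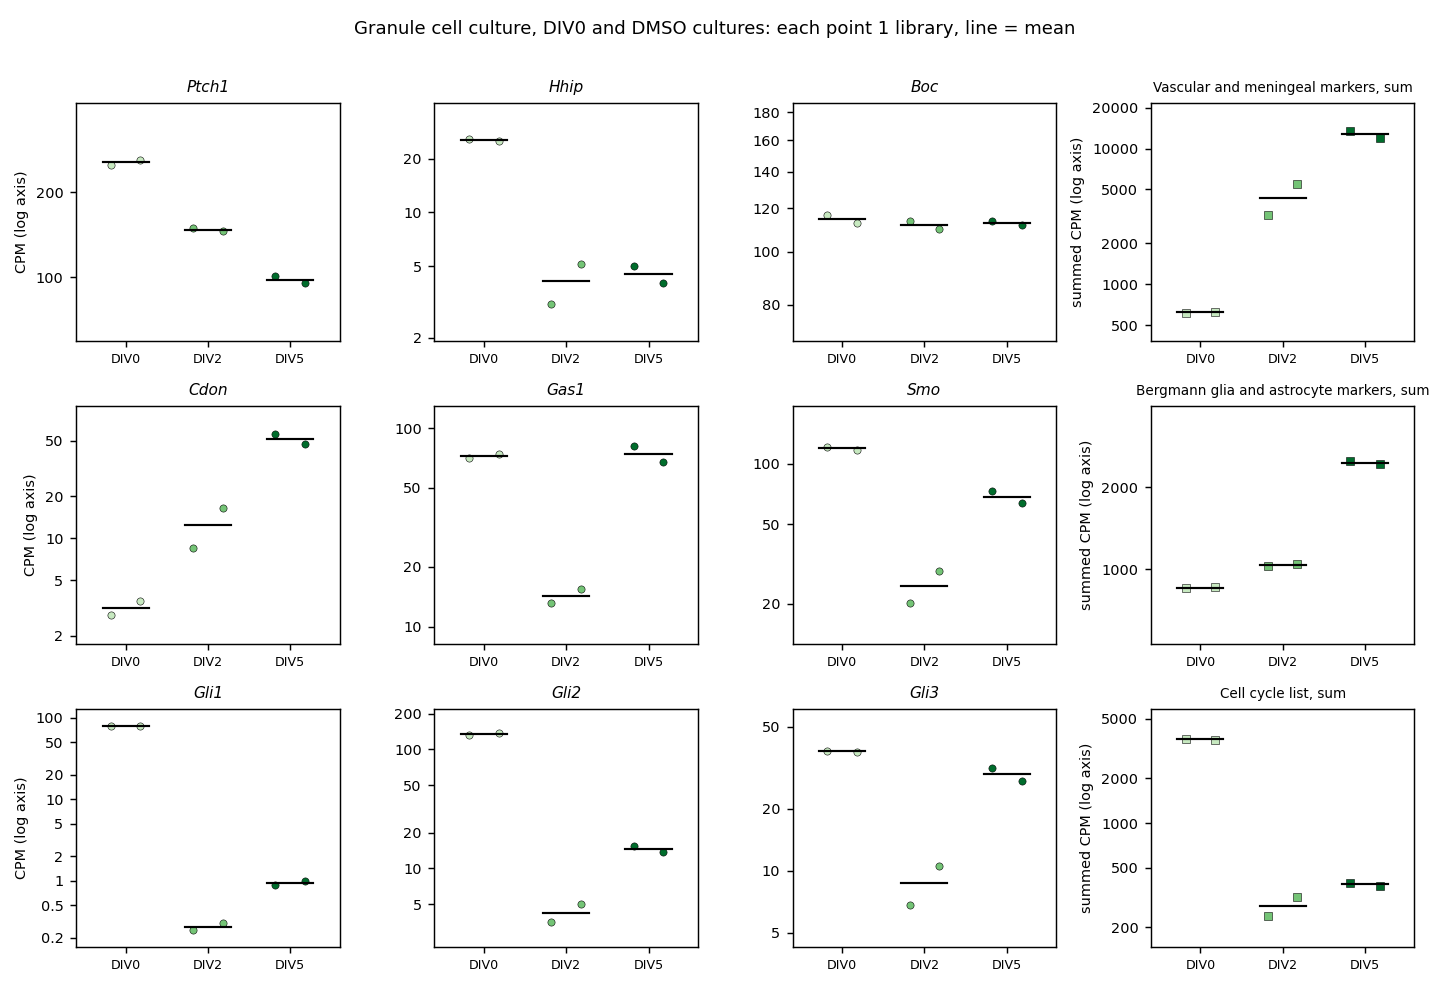
Levels of the 9 genes in CPM, and summed levels of 3 marker lists, on log axes at DIV0 and in DMSO cultures at DIV2 and DIV5 (n = 2 each), with points for libraries and lines for means. Gas1, Smo, Gli2 and Gli3 dip at DIV2, and at DIV5 the Gas1 libraries lie on either side of those at DIV0 and the other 3 genes lie between, when the vascular and meningeal sum is 12000 CPM or more.

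The change in culture and the change in vivo differed for each of the 9. The culture change (DIV5 over DIV0) minus the in vivo change (P21 over P7 in Neurod1 TRAP) was positive for 5 members and negative for 4, all 9 past the test, where 64.9% of genes were called, 35.9% higher and 29% lower. Ptch1 fell in culture by 1.47 on the log2 scale and rose in vivo by 0.84, a difference of -2.29 (SE 0.16, adjusted p = 3.4e-12). Boc, which did not pass in culture (log2 -0.11), differed by -1.80 (SE 0.16) and Hhip by -2.35 (SE 0.38). On this scale Gli1 fell further in culture than in vivo (difference -2.63, SE 0.38, adjusted p = 3e-07), whereas Gli2 and Gli3 fell further in vivo (differences 2.97, SE 0.28, and 3.93, SE 0.32). Cdon rose in both and by 1.76 (SE 0.29) more in culture. The in vivo samples were RNA pulled down with tagged ribosomes and the culture samples RNA of all cells in the dish, and the starting stages differed, with cell cycle sums of 3640 and 3620 CPM at DIV0 and 1510 to 1900 CPM in P7 Neurod1 TRAP. The system, the kind of RNA and the starting stage cannot be told apart. Boc and Ptch1, as given above, were lower in P7 Neurod1 TRAP than in Math1 TRAP, so their in vivo rise is measured from that lower level. With scaling by library size alone the median difference over all genes moved by 0.27 and the higher share of calls was 67.7% rather than 55.3%, with the calls of all 9 kept.

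**Figure D4:**
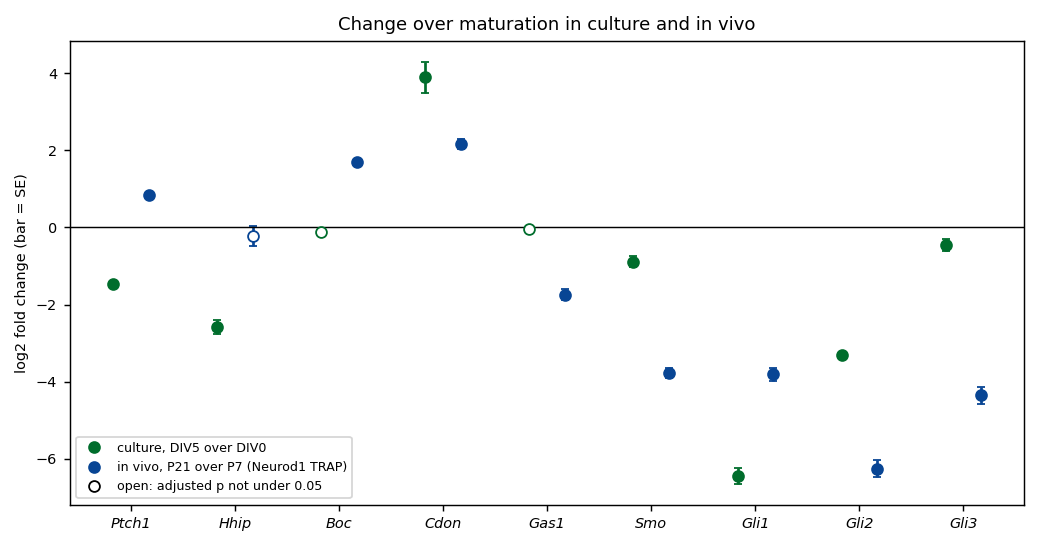
Log2 fold change of each gene in culture (DIV5 over DIV0) and in vivo (P21 over P7, Neurod1 TRAP), with bars of 1 SE and open symbols where the adjusted p is not under 0.05. The culture point lies below the in vivo point for Ptch1, Hhip, Boc and Gli1 and above it for the other members.

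In fold terms P7 Math1 TRAP differed from freshly isolated cells most in Hhip among the 9. Math1 TRAP was RNA pulled down with tagged ribosomes, and DIV0 was RNA of all isolated cells from mice without a tag. The kind of RNA, the line and the experiment cannot be told apart. Math1 TRAP held 3.50, 2.05, 2.91 and 4.48 CPM of Hhip, against 25.6 and 25.1 CPM at DIV0, 8.73-fold lower (log2 -3.13, SE 0.26, adjusted p = 1.7e-05). In Math1 TRAP 3 members were lower, 3 were higher and 3 did not pass, where 66.6% of genes were called, 33.3% higher and 33.4% lower. Ptch1 was 1.54-fold lower, with 172 to 192 CPM in Math1 TRAP and 251 and 260 CPM at DIV0, and Gli2 1.55-fold higher, with 209 to 249 CPM in Math1 TRAP and 132 and 137 CPM at DIV0. The calls of Boc, Smo and Gli3 were small (log2 0.22, 0.34 and -0.48). Boc and Smo lost theirs with scaling by library size alone, at 0.01 and 0.12, Gli3 without Math1 library 3 or 4 or either DIV0 library, Boc with DESeq2 and without Math1 library 2 or 3 or either DIV0 library, and Smo without DIV0 library 2. That scaling moved the median of all genes by -0.22, the higher share of calls was 37.8% rather than 49.9%, and Gas1 gained a call (log2 -0.27, adjusted p = 0.031). All 10 vascular and meningeal markers were lower in Math1 TRAP, with sums of 52 to 98.2 CPM there and 613 and 629 CPM at DIV0.

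The genes most like Hhip over the 13 group means of log2(CPM + 1) were Ptprb, Cd34 and Gja4 (Pearson r 0.965, 0.949 and 0.944), of 12931 genes searched. Smo was most like Limd1, Pkdcc and Plscr1 (0.991, 0.979 and 0.979), Gli2 like Trim59 (0.985), and Gli3 like Helb, Nynrin and Tead1 (0.987, 0.981 and 0.976). Gli1 was most like Sox18 (0.966), Gas1 like Akr1b10 (0.958), Cdon like Nceh1 (0.976), Boc like Slc15a4 (0.935) and Ptch1 like Itch (0.969). These coefficients describe 13 groups, are no test, and rest on CPM that shares its library totals across genes.

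The UNC1999 comparison asks whether these genes shift at DIV5 when H3K27 methylation is inhibited. Ptch1 was higher, Gas1 and Gli1 were lower and 6 members did not pass, where 11.9% of genes were called, 6.36% higher and 5.53% lower. Gli1 had 0.228 and 0.365 CPM with UNC1999, which is 5 and 12 counts, against 0.893 and 0.996 CPM with DMSO, which is 16 and 24 counts (log2 -1.60, SE 0.34, adjusted p = 0.0055). Its call held in all 9 alternative fits, with adjusted p from 0.0012 to 0.046. Gas1 had 58.8 and 49 CPM with UNC1999 and 81.1 and 67.6 CPM with DMSO (log2 -0.47, SE 0.10, adjusted p = 0.015). Ptch1 had 120 and 107 CPM with UNC1999 and 101 and 95.1 CPM with DMSO (log2 0.22, SE 0.06, adjusted p = 0.028). The groups did not overlap for any of these 3, but the Gas1 call was lost without DMSO library 1 (adjusted p = 0.082) or UNC1999 library 2 (0.1). That of Ptch1 was lost without DMSO library 1 (0.053), DMSO library 2 (0.13) or UNC1999 library 1 (0.2), and with DESeq2 (0.13).

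Boc had 126 and 120 CPM under UNC1999 and 114 and 112 CPM with DMSO. Gli2 had 11.8 and 11.5 CPM under UNC1999 and 15.3 and 13.7 CPM with DMSO. Boc, Gli2 and Hhip did not pass (adjusted p = 0.16, 0.068 and 0.12), although their groups did not overlap either. In groups this small, a lack of overlap is weak evidence, for them and for Ptch1, Gas1 and Gli1. Its share among all genes was not counted. Cdon and Smo were within 0.04 of no change on the log2 scale, with SEs of 0.24 and 0.14. Of the other pathway genes only Bmi1, a Polycomb gene listed among the progenitor targets, was called (log2 0.47, SE 0.07, adjusted p = 0.00064), and 7 of the 8 granule neuron maturation genes were higher. Of the 11 astrocyte and Bergmann glia markers, 7 were lower with UNC1999, led by Gdf10 (log2 -0.57), with sums of 2050 and 2210 CPM under UNC1999 and 2440 and 2490 CPM with DMSO. The vascular and meningeal sums were 10900 and 10200 CPM under UNC1999 and 13600 and 12000 CPM with DMSO. The part of these cells in the fall of Gli1 and Gas1 was not tested.

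The Ezh1 cultures were checked first for Ezh1 itself. It was at 29, 29.7, 29.5 and 28.2 CPM in cKO cultures and 32.8, 34.7, 41.2, 39.1 and 33 CPM in wt cultures, so the groups did not overlap and transcript was still counted in the cKO. The counts cover the whole gene, and the deleted part is not given in the labels. None of the 9 members passed the test between cKO and wt, and no gene of 14461 was called (0%), with 169 genes and no member at an unadjusted p under 0.05 in edgeR and no gene called by DESeq2. The differences of the members were between 0.01 and 0.30 on the log2 scale, with SEs from 0.13 for Boc to 0.58 for Gli1.

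Libraries 1 and 2 of each genotype had less Ptch1, Boc and Hhip and more Gas1, Smo and Gli1 than libraries 3 to 5. Gas1 had 126, 104, 52.2 and 59 CPM in cKO libraries 1 to 4, against 100, 128, 39.6, 27.6 and 53.0 CPM in wt libraries 1 to 5. Ptch1 had 65, 64, 98.4 and 103 CPM in cKO and 37.2, 53.3, 108, 111 and 94 CPM in wt. Gli1 had 2.41, 1.09, 0.71 and 0.634 CPM in cKO and 2.37, 1.33, 0.622, 0.661 and 0.699 CPM in wt. The glial markers summed to 8800, 11200, 4950 and 6100 CPM in cKO and 5680, 10900, 3880, 2580 and 4730 CPM in wt, so cKO library 4 was above wt library 1. Sums of 8 microglia markers were 285 to 388 CPM in libraries 1 and 2 and 38.8 to 63.2 CPM in libraries 3 to 5 of both genotypes. Libraries 1 and 2 were likewise above libraries 3 to 5 in the oligodendrocyte lineage sum, with 688 to 1080 CPM in libraries 1 and 2 and 170 to 255 CPM in libraries 3 to 5. The Purkinje cell sum was 166 to 214 CPM in libraries 1 and 2 and 56 to 65.4 CPM in libraries 3 to 5, and the vascular and meningeal sum 7240 to 9790 CPM in libraries 1 and 2 and 4160 to 6600 CPM in libraries 3 to 5. The GABAergic interneuron sum was lower in libraries 1 and 2, with 56.8 to 108 CPM in libraries 1 and 2 and 233 to 304 CPM in libraries 3 to 5. The part of these cells in the split was not tested. With the replicate number as a block, which matches libraries across genotypes, Gas1 differed by 0.33 (SE 0.18), Gli2 by 0.34 (SE 0.14) and Gli3 by 0.31 (SE 0.14), with adjusted p of 0.53, 0.49 and 0.49 and no gene called. With libraries 1 and 2 alone the members ranged from -0.14 for Gli1 to 0.47 for Ptch1, and with libraries 3 to 5 alone from -0.07 for Ptch1 to 0.46 for Gas1, again with no call.

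The UNC1999 effect minus the Ezh1 cKO effect did not pass for any member, and no gene of 15453 was called (0%). The Gli1 difference was -1.67 with an SE of 1.02, set beside a UNC1999 effect of -1.6. At an unadjusted p under 0.05 there were 247 genes and no member in edgeR, and DESeq2 called 6 genes and no member.

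**Figure D5:**
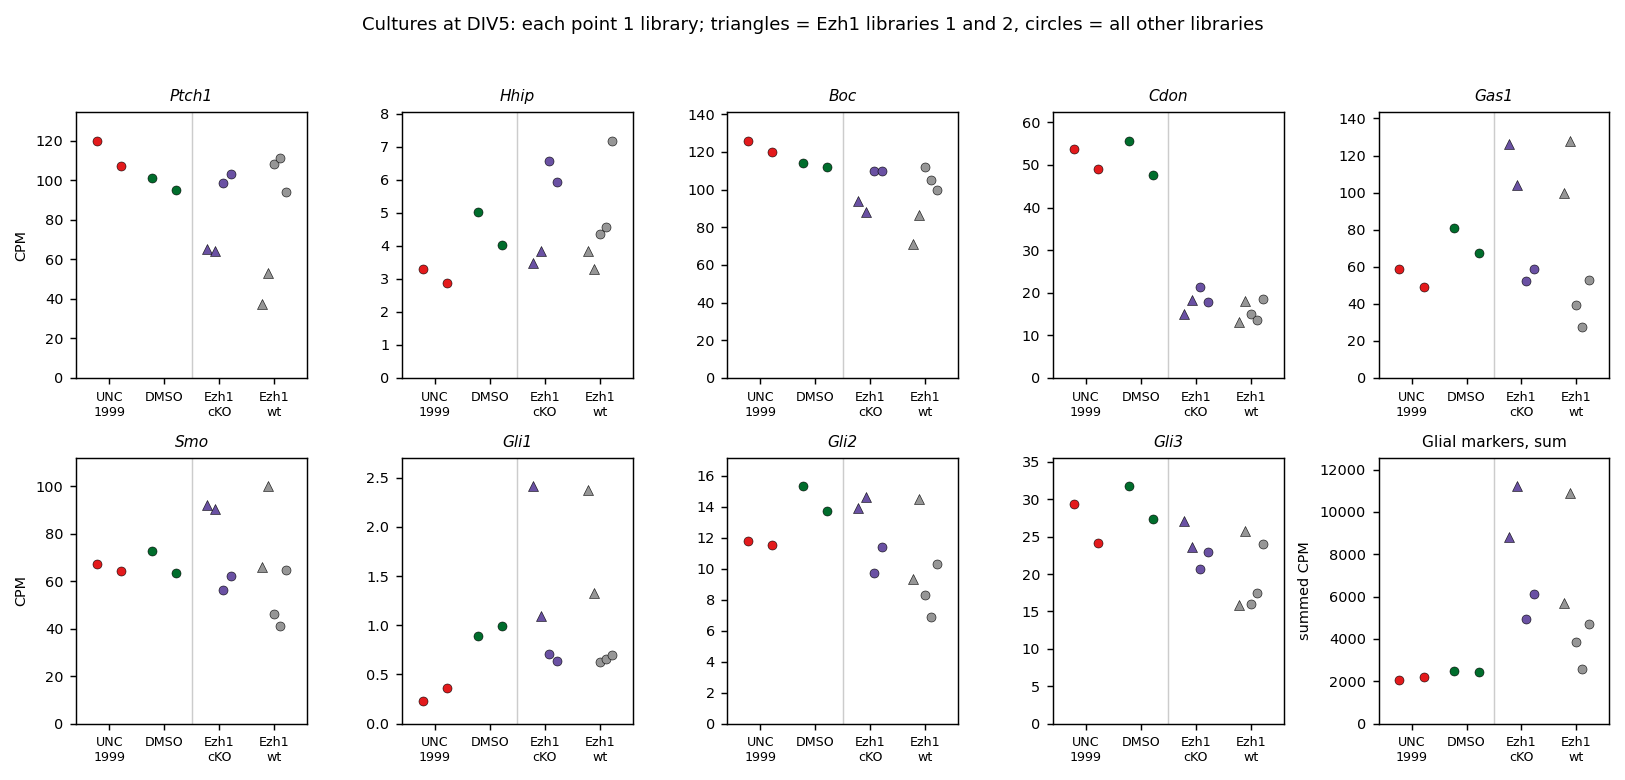
Levels at DIV5 in CPM on linear axes with UNC1999 and DMSO (n = 2 each) and in Ezh1 cKO (n = 4) and wt (n = 5) cultures, with the summed glial markers in the last panel. Triangles are Ezh1 libraries 1 and 2. Gli1 is lowest with UNC1999, and the triangles of both genotypes are high for Gas1, Smo and Gli1 and low for Ptch1, Boc and Hhip.

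Over all 13 groups Gli1 ran from Math1 TRAP (94 CPM) and DIV0 (79.2 CPM), through the P7 input (37 CPM) and P7 Neurod1 TRAP (33.9 CPM), the P21 and P12 inputs (16.5 and 14.9 CPM), and P12 and P21 Neurod1 TRAP (5.52 and 2.67 CPM), to the 5 cultures (0.275 to 1.21 CPM). Neighbours overlapped between P7 Neurod1 TRAP and its input, among the DIV5 Ezh1 and DMSO cultures and P21 Neurod1 TRAP, and between UNC1999 and DIV2. In fold terms Ptch1 covered a narrower range, from 256 CPM at DIV0 to 80.8 CPM in Ezh1 wt cultures. Its level at P21 in Neurod1 TRAP overlapped that in Math1 TRAP, although Gli1 in those groups was 2.37 to 3.16 CPM and 80.8 to 111 CPM. Some counts are uncertain, since the sources used here do not state that strand was kept in counting. Of the exon bases, 589 of Gas1's 2961 overlap the antisense gene Gm48488, 265 and 62 of Gli1's 4995 overlap Gm47200 and Arhgap9, 188 of Gli3's 9589 overlap Gm6556 and 175 of Hhip's 9076 overlap Gm27820.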

How the data were processed

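RNA was measured by poly(A) RNA-seq (NEBNext Ultra II, single-end reads). The deposited values are estimated counts per gene, in whole numbers, made by the authors with Salmon 0.8.2 and mm10 per the submitters' processing notes. The annotation and strand setting are not given in the sources used here. Of 24100 identifiers, 24045 matched a symbol, and 1041 genes were blank in the Ezh1 libraries and left out of fits with them. Levels are CPM with TMM factors over all 39 libraries. Tests were edgeR 4.0.16 quasi-likelihood fits (filterByExpr, minimum count 10), adjusted by Benjamini-Hochberg over all genes and called under 0.05. DESeq2 1.42.0 was an alternative, with library-size scaling, no filter, left-out libraries and replicate blocks. The edgeR fits were tested on simulated data. Named were all members and up to 3 genes per pathway list by smallest adjusted p, the 3 genes of most similar group means, and genes that check the labels. Some genes that this rule names are not reported here. The members and lists were chosen with earlier results of these data known. Same-numbered Ezh1 libraries of the 2 genotypes deviated together (r 0.832 to 0.914). Different-numbered ones within libraries 1 and 2, or within 3 to 5, did so too (r 0.733 to 0.907). These values follow the split between the 2 sets and do not show that single libraries are paired by number. In TRAP and the other cultures, same-numbered libraries did not consistently deviate together.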

Additional observations from a re-analysis of the deposited data

Results flagged for a closer look

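Of 54 pairs of a member and a group of 4 or 5 libraries, 5 held a library far from the others by Dixon's criterion, where chance flags about 1 in 20, or 2.7 pairs. Boc was 163 CPM in Math1 TRAP library 2, with the nearest library at 142 CPM. Smo was 6.04 CPM in P21 Neurod1 TRAP library 3, with the nearest at 5.01 CPM. Gli1 was 9.04 CPM in P12 Neurod1 TRAP library 3, with the nearest at 5.31 CPM. Gli2 was 65.7 CPM in P7 Neurod1 TRAP library 5, with the nearest at 56.6 CPM. Gli3 was 1.66 CPM in P12 Neurod1 TRAP library 5, with the nearest at 2.77 CPM.

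The change in culture minus the change in vivo passed edgeR's test for each of the 9, where 64.9% of all genes passed. It was -2.29 for Ptch1, -2.35 for Hhip, -1.8 for Boc and -2.63 for Gli1 on the log2 scale. It was 1.76 for Cdon, 1.7 for Gas1, 2.91 for Smo, 2.97 for Gli2 and 3.93 for Gli3. The system, the kind of RNA and the starting stage cannot be told apart in this difference.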

How the results depend on the processing

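The calls of the members in the 3 comparisons between ages, in Neurod1 against Math1 TRAP and in culture against in vivo held under every alternative run. The cause of the changes below was not tested. With scaling by library size alone, uncalled members changed sign: Hhip -0.01 (P21 against P12), Boc -0.17 (TRAP against input) and 0.1 (DIV5 against DIV2), Gas1 0.06 (DIV5 against DIV0) and Gli1 -0.09 (Math1 TRAP against DIV0), where 1 member was higher. With DESeq2 or with no filter 1 member was higher in TRAP against input. For UNC1999, DESeq2 called 909 genes rather than 1899 and 0 members higher, and with no filter 4 members were lower. For UNC1999 minus Ezh1 cKO, DESeq2 called 6 genes and the replicate block 2.

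The replicate block turned Gli1 to -0.1 in cKO against wt and changed no call of a member. There, libraries 1 and 2 alone gave Hhip -0.02, Gas1 -0.04 and Gli1 -0.14, libraries 3 to 5 alone gave Ptch1 -0.07, and the library set as a covariate gave Gli1 -0.09 and 1 gene called, all chosen after seeing the data. Boc in DIV5 against DIV2 was 0.02 with only those groups, 0.03 with their replicate block and 0.02 with crossed numbers. The genes called were 10791 with crossed numbers and 8643 with same numbers, beside 9795 with only those groups and no block, with 6 members higher and 1 lower in each.

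Leaving out 1 library at a time gave these ranges. Members higher were 0 to 1 in TRAP against input, 0 to 1 for UNC1999 and 1 to 3 for Math1 TRAP against DIV0. For UNC1999, 932 to 1297 genes and 1 to 2 members lower were called. Smo ranged from -0.13 to 0.05 for UNC1999. Gas1 ranged from -0.19 to 0.06 in DIV5 against DIV0, and Hhip from -0.21 to 0.57 and Boc from -0.06 to 0.03 in DIV5 against DIV2. In cKO against wt, Ptch1 ranged from -0.15 to 0.15, Hhip from -0.09 to 0.26, Boc from -0.01 to 0.12 and Gli1 from -0.55 to 0.56. A lone library left in a group was assumed to vary like the other groups. Depth limits Gli1 in culture most, at 5 to 24 counts in DIV2, UNC1999 and DIV5 DMSO libraries.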
